A study of Mus musculus with 6 samples.

Results

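The genes described here code for adipokines, the hormones secreted by fat cells, and for proteins that take up and store lipid. Of the 10 genes listed, 8 have at least 1 probe set to which the platform's annotation gives their symbol and no other. These 8 are Adipoq, Retn, Cidec, Thrsp, Pnpla3, Fabp4, Lpl and Cd36, out of 12393 genes named in this way, and have 15 of the 22626 probe sets that are not controls. Cfd and Plin1 were not analysed here. The rule names genes without using a measured value, but it was written with earlier results of these data known. It also keeps 1 array, saline replicate 1, apart.

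Adipocytes secrete adiponectin and, in the mouse, resistin, and store triglyceride in a lipid droplet coated by perilipin and CIDE proteins. Fatty acids reach a tissue when lipoprotein lipase on the capillary wall splits the triglyceride of circulating lipoproteins. They then enter cells through carriers such as CD36 and are bound inside by fatty acid binding proteins. In the lung, lipoprotein lipase and CD36 are also known from capillary endothelium, alveolar macrophages and lipid-storing fibroblasts, and alveolar type II cells use fatty acids to make surfactant.

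Whole lungs were compared between 2 groups of female ob/ob mice of strain B6.V-Lepob/J at about 1 month of age, 3 given leptin and 3 given saline, on Affymetrix Mouse 430A arrays. All animals, the controls included, carry the ob mutation and make no working leptin, the hormone by which fat cells limit food intake, so no wild-type lung is in the comparison. Each sample is labelled as 1 tissue of 1 animal, and the sources used here do not state the dose, duration or route of leptin. The question is what the hormone changes in a lung that had been without it.

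Saline replicate 1 stood apart and was kept out of the main comparison. Its log2 intensities correlated with those of the other arrays at 0.438 to 0.447 (Pearson's r across probe sets, a description), while r among the remaining 5 ran from 0.973 to 0.978. Its 36 spiked-in control probe sets lay a median 19.7-fold above their level elsewhere, and its 10th percentile of intensity was 57.1 against 16.4 to 19.3. The Y-linked gene Uty read 1108.1 on it against 12.7 to 67.3 on the other arrays for 1 probe set, although all labels say female, while Xist, the transcript of the inactive X, read 7896 against 2697 to 3646 on 1 probe set and 578 against 1055 to 1553 on another. The main comparison is therefore 3 leptin arrays against saline replicates 2 and 3, and each member's change is also given with saline replicate 1. Lung markers were high on the 5 arrays, where the surfactant gene Sftpc read 23964 to 29732 and the club cell gene Scgb1a1 18473 to 22288. On saline replicate 1 they read 4087 and 68880.

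Promoters are shown for Adipoq and Cd36, the only members with a tested probe set whose leptin and saline arrays did not overlap. They come from RefSeq (build GRCm38.p6), span 250 bases before to 50 after the annotated start, and are written 5′ to 3′ on the gene's strand. That of Adipoq is chr16:23146286-23146585 on the plus strand and that of Cd36 chr5:17835847-17836146 on the minus strand. Capitals mark the CCAAT box on either strand (CCAAT or ATTGG).
Adipoq: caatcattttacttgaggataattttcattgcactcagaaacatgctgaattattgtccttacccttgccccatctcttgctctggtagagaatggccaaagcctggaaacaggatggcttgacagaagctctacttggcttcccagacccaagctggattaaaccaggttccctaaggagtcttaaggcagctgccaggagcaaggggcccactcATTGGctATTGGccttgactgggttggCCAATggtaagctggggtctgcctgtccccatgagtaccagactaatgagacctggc
Cd36: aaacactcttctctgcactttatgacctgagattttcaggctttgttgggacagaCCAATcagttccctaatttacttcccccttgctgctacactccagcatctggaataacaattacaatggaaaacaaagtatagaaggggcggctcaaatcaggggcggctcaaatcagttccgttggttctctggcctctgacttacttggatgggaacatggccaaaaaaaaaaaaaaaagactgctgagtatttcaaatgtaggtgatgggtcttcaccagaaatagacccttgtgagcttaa

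The Adipoq window holds 3 CCAAT boxes, a number reached or passed by 3.37% of 32851 mouse promoter windows of the same length. The Cd36 window holds 1, and 37.4% of all windows hold at least 1. The half-site AGGTCA, which nuclear receptors such as PPARγ bind as a direct repeat, was found once in the Cd36 window and not in that of Adipoq, against 16.3% of all windows. Neither window held the direct repeat with a spacer of 1 base, which is in 0.0396% of windows, nor the E-box CACGTG (7.15%) or the TATA box TATAAA (13.6%). The GC box GGGCGG occurred 2 times in the Cd36 window and is in 35.7% of all. All motifs were searched on both strands, and those found did not overlap. A match describes these letters alone. Of the 8 genes, 6 had a promoter in the table used.

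No member differed between leptin and saline past the adjusted threshold. Of the 15 probe sets, 13 passed the filter on dim probe sets and were tested, covering all 8 genes. The limma test (Benjamini-Hochberg adjustment over 15838 probe sets, threshold 0.05) called 0 of the 13, where 0.0442% of all tested probe sets were called. Those were 7, and 0 with the replicate number as a block. At an unadjusted p under 0.05 it gave 1 of 13, Adipoq, against 4.6% of all tested probe sets. The adjusted p was 1.00 for each of the 13. Values were higher with leptin in 9 and lower in 4, against 50.3% higher overall. Their median log2 change was 0.06, beside 0.00124 for all tested probe sets. In 2 of the 13 the lowest leptin array lay above the highest saline array, and in 0 the reverse, where 9.92% and 9.66% of all tested probe sets did so. A count of 1 or 2 among 13 is near these shares.

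The 95% confidence interval of the log2 change lay within 2-fold in either direction for 13 of the 13 tested probe sets, as it did for 94.8% of all. It lay within 1.5-fold for 7 of them, against 58.2% of all. These intervals are for single probe sets, not adjusted for their number, and rest on 5 arrays. A p that misses the threshold does not show equal expression. In whole lung, a change in the number of cells of a type and a change in RNA per cell cannot be told apart.

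**Figure D1:**
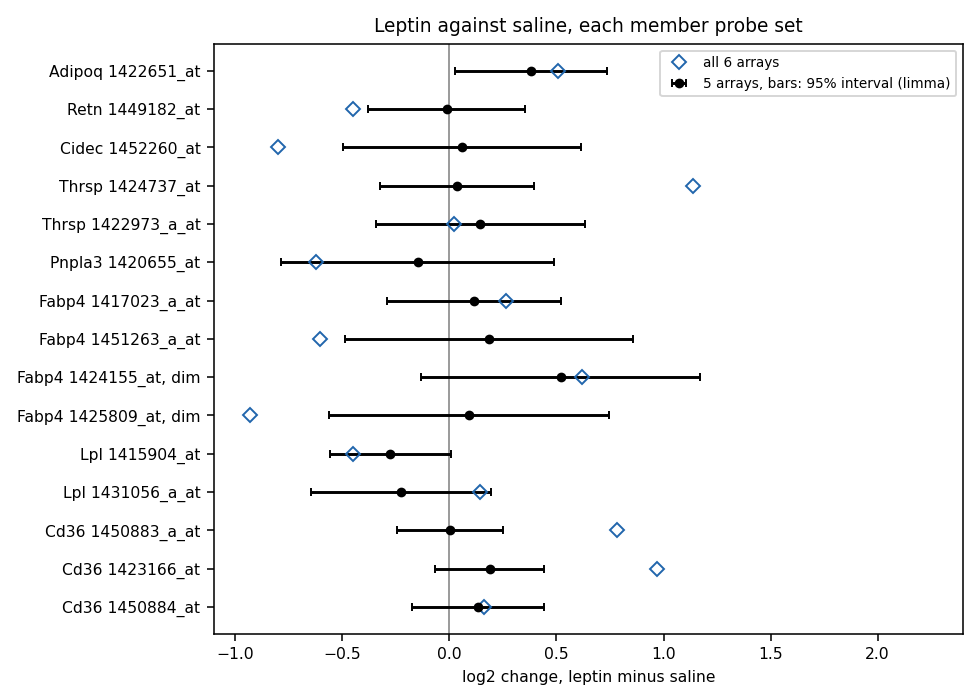
Log2 change (leptin minus saline) of each member probe set, with limma 95% confidence intervals for 3 leptin and 2 saline arrays (black) and the value with saline replicate 1 included (open diamonds). The Adipoq interval, 0.02 to 0.74, lies above 0, and 7 of the 15 diamonds, among them those of Cidec, Retn and 2 of the 3 Cd36 probe sets, lie outside the black intervals. Probe sets marked dim were below the filter.

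Adipoq codes for adiponectin, the adipocyte hormone that raises insulin sensitivity and acts through the receptors AdipoR1 and AdipoR2. Its probe set (1422651_at, Entrez Gene 11450) gave 512.8, 624.0 and 655.3 on the arrays of the leptin group, against 428.1 and 475.4 on saline replicates 2 and 3. Every leptin array lay above both saline arrays, by 1.53-fold in the widest pair. The means were 597 ± 74.9 (SD, n = 3) and 452 ± 33.4 (SD, n = 2). The log2 change was 0.38 ± 0.16 (SE), or 1.30-fold, with an unadjusted p of 0.0386 and a limma adjusted p of 1.00. Saline replicate 1 read lower still, at 343.1, and with it the change was 0.51 ± 0.25 (limma adjusted p = 0.715), again without overlap between the groups. With all 6 arrays 5% of tested probe sets were higher with leptin without overlap. Leaving out any of the 5 arrays gave 0.31 to 0.48.

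Among genes tied to adiponectin, the receptor Adipor1 was at -0.19 ± 0.12 and Adipor2 at -0.06 ± 0.18 (log2 change ± SE, limma adjusted p = 1.00 for both), and both turned with saline replicate 1, to 0.54 and 0.11. Cdh13, which codes for T-cadherin, a surface protein that binds adiponectin, was at 0.28 ± 0.17. Its intensity was 342.0, 302.9 and 308.1 with leptin, against 269.9 and 247.1 with saline. Its groups did not overlap, and it did not pass the threshold (limma adjusted p = 1.00). On 6 arrays it was at 0.21.

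Retn codes for resistin, a cysteine-rich hormone that in mice comes mainly from adipocytes. Its probe set (1449182_at, Entrez Gene 57264) gave 562.3, 568.3 and 430.9 with leptin, against 510.1 and 533.6 on saline replicates 2 and 3. The saline arrays fell inside the leptin range. The log2 change was -0.01 ± 0.17 (SE, limma adjusted p = 1.00), with an interval from -0.38 to 0.36. On saline replicate 1 it read 1324.8, which took the change on 6 arrays to -0.45 ± 0.42. Of its relatives, Retnla, a resistin-like molecule secreted by airway epithelium and macrophages in the mouse lung, was at 0.0040 ± 0.14 (0.80 with saline replicate 1), and Retnlb read 7.7 to 15.9 on the 5 arrays, below the filter.

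**Figure D2:**
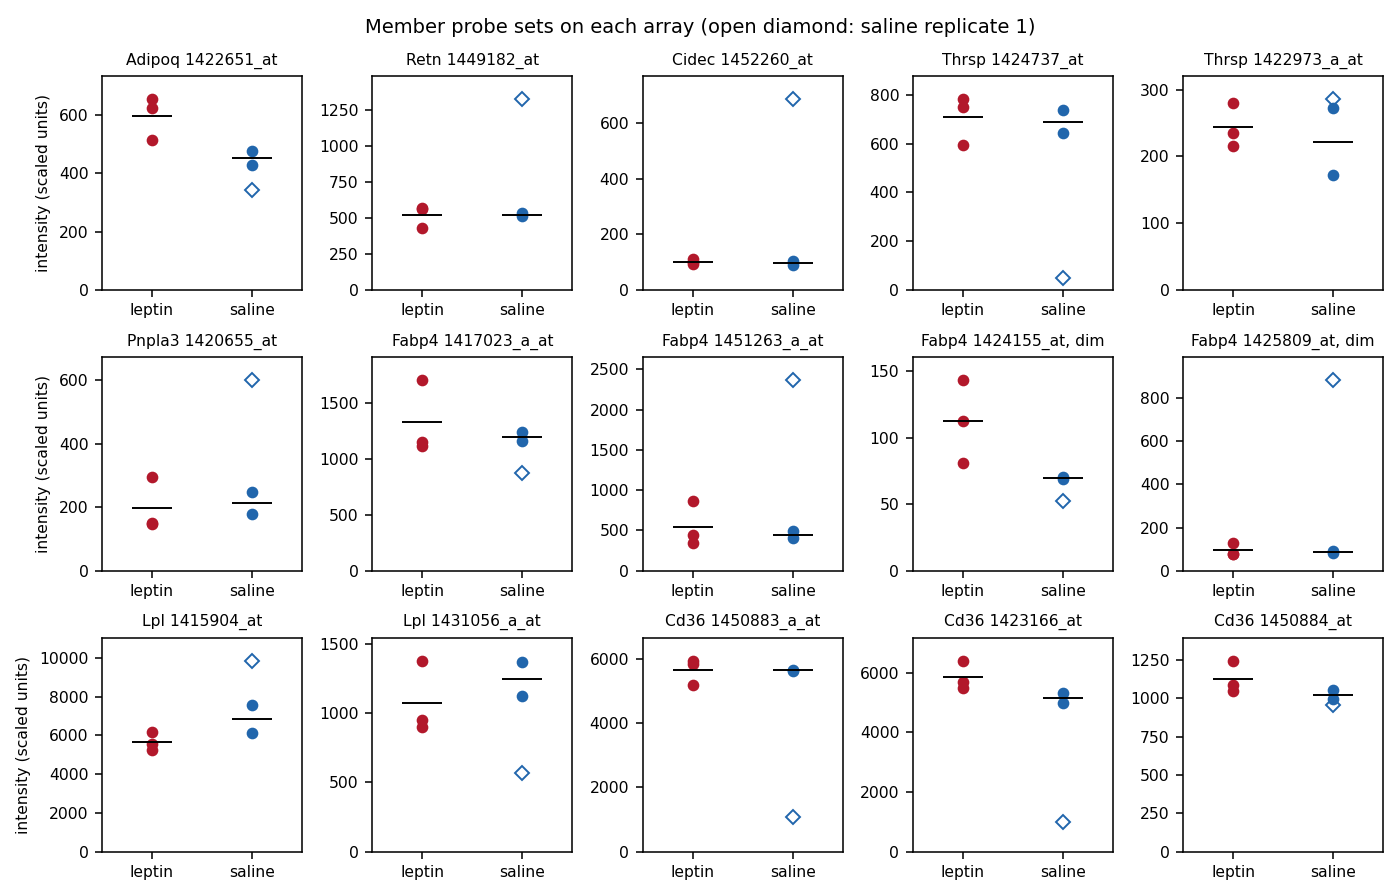
Intensity (linear, scaled units, axes from 0) of each member probe set on the leptin arrays (red) and the saline arrays (blue), with saline replicate 1 as an open diamond and bars at the means of the 3 leptin and the other 2 saline arrays. In the Adipoq panel the 3 leptin points, 512.8 to 655.3, lie above all saline points, and in most panels the diamond lies far from the other points. Probe sets marked dim were below the filter.

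Cidec, Thrsp and Pnpla3 act at the lipid droplet or in lipogenesis. Cidec codes for a droplet protein that lets small droplets merge into large ones in white fat. Its probe set (1452260_at, Entrez Gene 14311) read 100.8, 93.6 and 109.7 with leptin and 90.5 and 102.2 with saline, a log2 change of 0.06 ± 0.25 (limma adjusted p = 1.00). The groups overlapped, and the coefficient of variation over the 5 arrays was 7.61%. At 687.2, saline replicate 1 was far higher, and with it the change turned to -0.80 ± 0.74.

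Thrsp codes for a nuclear protein that accompanies fatty acid synthesis in fat and liver. Probe set 1424737_at (Entrez Gene 21835) read 783.6, 595.8 and 749.9 with leptin and 642.6 and 736.2 with saline, at 0.03 ± 0.16. Probe set 1422973_a_at read 280.3, 215.8 and 234.3 with leptin and 271.6 and 172.5 with saline, at 0.14 ± 0.22. Both overlapped between the groups (limma adjusted p = 1.00 for both). Saline replicate 1 read 49.2 on the former, below every other array, and 285.9 on the latter, above every other array. With it the changes were 1.14 ± 0.91 and 0.02 ± 0.30.

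Pnpla3 codes for adiponutrin, a lipid droplet protein related to triglyceride lipases and induced by feeding. Its probe set (1420655_at, Entrez Gene 116939) read 295.9, 146.2 and 150.6 with leptin and 247.0 and 178.9 with saline. Leptin replicate 1 was the highest and the other leptin arrays the lowest of the 5. The log2 change was -0.15 ± 0.29 (limma adjusted p = 1.00), with an interval from -0.79 to 0.49. Its coefficient of variation, 32.1%, was above the 14% median of all tested probe sets. With saline replicate 1, at 600.5, the change was -0.62 ± 0.51.

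Fabp4 codes for the fatty acid binding protein of adipocytes, also made by macrophages and capillary endothelium. It has 4 probe sets (Entrez Gene 11770), of which 2 were tested. Probe set 1417023_a_at read 1120.2, 1157.3 and 1711.8 with leptin and 1246.6 and 1159.2 with saline, a log2 change of 0.12 ± 0.18. Probe set 1451263_a_at read 438.2, 340.1 and 860.0 with leptin and 488.5 and 400.2 with saline, at 0.18 ± 0.30. On both, leptin replicate 3 was the highest of the 5 arrays and the saline arrays lay inside the leptin range. Without leptin replicate 3 the changes were -0.08 and -0.19, so the direction rested on that array (limma adjusted p = 1.00 for both with it).

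The other Fabp4 probe sets were below the filter and have no call. Probe set 1424155_at read 112.4, 81.1 and 143.3 with leptin and 69.1 and 70.7 with saline, again highest on leptin replicate 3 and without overlap, at 0.52 ± 0.28 in a fit without the filter (limma adjusted p = 0.998). Probe set 1425809_at read 129.9, 78.8 and 79.0 with leptin and 83.5 and 89.9 with saline, at 0.09 ± 0.28. Leptin replicate 1, not 3, was the highest there. On saline replicate 1 the 4 probe sets went both ways, at 878.2 and 52.7 for 1417023_a_at and 1424155_at, the lowest of the 6 arrays, and at 2369.6 and 884.4 for 1451263_a_at and 1425809_at, the highest. With it 1451263_a_at turned to -0.60 ± 0.73 and 1425809_at to -0.93 ± 0.87.

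Lpl codes for lipoprotein lipase. Probe set 1415904_at (Entrez Gene 16956) read 5536.1, 5251.0 and 6166.7 with leptin and 6140.4 and 7596.5 with saline. Of the 6 leptin and saline pairs 5 were lower with leptin, and leptin replicate 3 lay just above saline replicate 2. The means were 5651 ± 469 (SD, n = 3) and 6868 ± 1030 (SD, n = 2). The log2 change was -0.28 ± 0.13 (SE), or 0.826-fold, with an unadjusted p of 0.0561, a limma adjusted p of 1.00 and an interval from -0.56 to 0.0085. The value was -0.12 without saline replicate 3 and -0.43 without saline replicate 2.

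Probe set 1431056_a_at of Lpl read 951.6, 1377.4 and 896.3 with leptin and 1368.2 and 1120.2 with saline, also lower on average, at -0.23 ± 0.19. Its groups overlapped (limma adjusted p = 1.00). On saline replicate 1 Lpl read 9858.2 on 1415904_at and 565.4 on 1431056_a_at, the highest and the lowest of the 6 arrays. With it the changes were -0.45 ± 0.41 and 0.14 ± 0.40, so the second probe set changed sign.

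The partners of lipoprotein lipase given here did not pass the threshold either. Gpihbp1, on the capillary endothelial list, had no probe set with its symbol alone and was not analysed. Lmf1, which matures the enzyme in the endoplasmic reticulum, was at 0.43 ± 0.28, with levels of 351 to 374 under leptin, against 406.1 and 165.7 for saline replicates 2 and 3. Angptl4, its secreted inhibitor, was at -0.05 ± 0.13, and Vldlr, a lipoprotein receptor, at 0.10 ± 0.18 (limma adjusted p = 1.00 for each). With saline replicate 1 Lmf1 was at 0.76, and the other two turned, to 0.041 and -0.060.

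Cd36 codes for the fatty acid translocase, a scavenger receptor that brings long-chain fatty acids into cells. Probe set 1450883_a_at (Entrez Gene 12491) read 5829.4, 5191.0 and 5929.6 with leptin and 5609.5 and 5659.6 with saline, a log2 change of 0.0015 ± 0.11 with an interval from -0.25 to 0.25. It was the steadiest of the 15 probe sets over the 5 arrays, with a coefficient of variation of 5.03%. Its means were 5650 ± 401 (SD, n = 3) and 5635 ± 35.4 (SD, n = 2).

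Probe set 1423166_at of Cd36 read 5691.1, 5487.0 and 6394.5 with leptin and 5300.0 and 4964.3 with saline. Each leptin array lay above both saline arrays, by at most 1.29-fold, and the change was 0.19 ± 0.12 (unadjusted p = 0.133, limma adjusted p = 1.00). Probe set 1450884_at read 1245.3, 1050.2 and 1086.4 with leptin and 994.2 and 1053.0 with saline, at 0.13 ± 0.14. Of its 6 pairs 5 were higher with leptin. Saline replicate 1 read 1088.3, 990.3 and 959.0 on the 3 probe sets, the lowest array on each. The changes on 6 arrays were 0.78 ± 0.70, 0.97 ± 0.70 and 0.16 ± 0.23, with a limma adjusted p of 0.715, 0.715 and 0.737.

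Over all members, saline replicate 1 was the highest of the 6 arrays on 7 probe sets and the lowest on the other 8, and on 0 did it lie between the others. Over all probe sets it was the highest on 54.6% and the lowest on 33.8%. Of the 4 member genes with several probe sets, Thrsp, Fabp4 and Lpl were highest on it in 1 probe set and lowest in another. That held for 40.3% of 4956 genes with several probe sets, and for 3.03% to 5.02% on each of the other arrays. Its ratio to the mean of the other 5 arrays ran from 0.0701 for Thrsp 1424737_at to 9.59 for Fabp4 1425809_at.

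With all 6 arrays 14 member probe sets were tested and limma called 0, at 0% of all tested probe sets. At an unadjusted p under 0.05 it gave 0 of 14, against 0.385% of all. The median SE of the tested members was 0.47 with saline replicate 1 and 0.17 without it. The direction turned with it in 4 of the 15 probe sets, those of Cidec, Fabp4 1451263_a_at and 1425809_at, and Lpl 1431056_a_at.

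**Figure D3:**
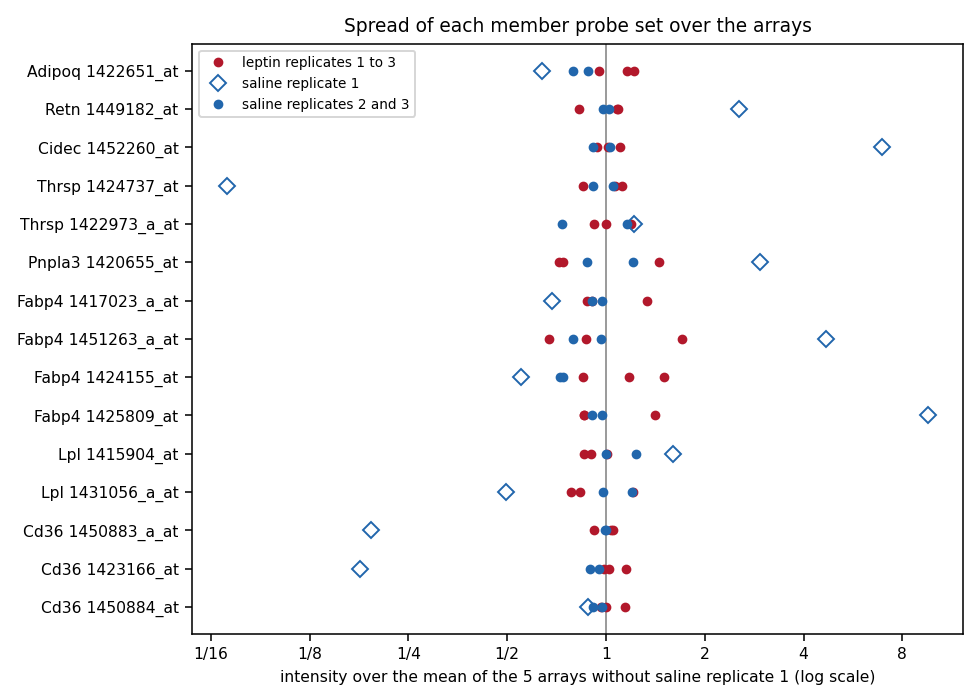
Intensity of each member probe set on each array, divided by its mean over the 5 arrays without saline replicate 1 (log scale). Leptin arrays are red, saline replicates 2 and 3 blue, and saline replicate 1 is an open diamond, which runs from 0.0701 to 9.59 while the other points stay between 0.673 and 1.70.

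Without saline replicate 1 the members varied among the arrays about as much as other probe sets, with a median coefficient of variation of 14.7% against 14%. Leptin replicate 3 was the highest of the 5 arrays on 6 of the 13 tested member probe sets, against 18.5% of all tested probe sets, and saline replicate 2 on 0, against 20.9%. These 6 are probe sets of Adipoq, Cidec, Fabp4 (2) and Cd36 (2). The probe sets of 1 gene share its transcript and are not independent.

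The pattern of Adipoq over the 5 arrays was set against 14373 tested probe sets named for other genes. Genes with provisional names, such as those with Rik, Gm or LOC, were left out. The measure was the root mean square difference of log2 values, each centred on its own mean. The closest was Ccnd1, cyclin D1, at 0.0372, followed by Pnrc2, Oas1e, Cfl2 and Asb13 at 0.0402 to 0.0513, while Adipoq itself varied by 0.223 around its mean. For Lpl 1415904_at the closest were Dpysl4, at 0.0263, Abhd14b, Cldn3, Taok3 and Ino80b, at up to 0.0414, with a spread of 0.182 for Lpl itself. None of these 10 is a member of the lists used here. The measure is a description over 5 arrays.

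Related genes were described by lists written with earlier results of these data known. Of 18 adipocyte genes 16 had a probe set and 10 were tested, 5 higher and 5 lower with leptin. Of the 10, limma called 0, and 2 had an unadjusted p under 0.05, against 4.6% of all tested probe sets. Their median log2 change was 0.02 (0.20 with saline replicate 1). Car3, a carbonic anhydrase abundant in fat and muscle, was at 0.54 ± 0.16 (unadjusted p = 0.00614, limma adjusted p = 0.860). It read 1781.0, 2066.2 and 2361.8 with leptin and 1580.4 and 1256.4 with saline, without overlap, and 8070.1 on saline replicate 1, which turned the change to -0.30. Cebpa, a transcription factor of adipocyte and alveolar type II cell differentiation, was at -0.30 ± 0.13, and Ccdc80, a secreted protein of fat and stroma, at 0.27 ± 0.14 (limma adjusted p = 1.00 for both). With saline replicate 1 Cebpa turned to 0.36 and Ccdc80 was at 0.86.

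The summed level of the adipocyte list was 9646 to 10581 with leptin, against 9638 and 10223 for saline replicates 2 and 3, so it overlapped between the groups, and 14124 on saline replicate 1. Cebpa and Car3 are its brightest genes, with means of 3265 and 1809 over the 5 arrays. Cebpa was lower and Car3 higher with leptin, each without overlap. The sum of the list was not tested as a measure of fat content. Of its defining markers, Lep, which stands first on the list, read at most 59.1 with leptin, against 131.9 and 124.5 on saline replicates 2 and 3, below the filter on dim probe sets. Pparg, the master regulator of fat cell differentiation, listed 17th, read 14.7 to 41.8 on the 5 arrays, also below the filter. Other genes of the list were brighter, and 10 of the 16 with a probe set passed the filter. Among them Plin4 read 428.8 to 607.9, Lipe 456.1 to 560.3 and Slc7a10 551.8 to 860.0 on the 5 arrays, each with overlap between the groups. Rbp4 and Nnat overlapped too. Gpd1 and Slc2a4 were lower with leptin without overlap, at -0.19 ± 0.15 and -0.09 ± 0.15, also with saline replicate 1. Ccdc80 was higher without overlap. Of all tested probe sets, 9.66% were lower and 9.92% higher without overlap on 5 arrays. Adrb3, listed second, was not analysed here. The part that fat attached to the lungs may have in the values of Adipoq was not tested.

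Of 10 brown adipocyte genes 5 were tested, with 0 called, 0 at an unadjusted p under 0.05, and a median of 0.08, which turned to -0.16 with saline replicate 1. Ucp1, the uncoupling protein that defines brown fat, read 5.3 to 13.4 on the 5 arrays, under the 10th percentile of each, and 195.7 on saline replicate 1. Cidea, a droplet protein related to Cidec, read 22.5 to 122.7 on the 5 arrays and was below the filter. The 3 with the smallest p were Cox7a1 at 0.27 ± 0.21, Ppargc1a at 0.23 ± 0.21 and Dio2 at 0.08 ± 0.20 (limma adjusted p = 1.00 for each). On 6 arrays Cox7a1 was at 0.74, and the other two turned, to -0.16 and -0.45.

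In the lipid uptake list 13 of 17 genes were tested, 5 higher and 8 lower, with 0 called, 0 at an unadjusted p under 0.05 and a median of -0.03, which turned to 0.23 with saline replicate 1. Fabp5, the epidermal fatty acid binding protein, was at -0.27 ± 0.12, with 3001.8, 3401.0 and 2807.0 with leptin and 3628.0 and 3773.3 with saline, without overlap. It read 34234 on saline replicate 1, and with that array the change was -1.34. Slc27a4, a fatty acid transport protein, was at -0.35 ± 0.18 (limma adjusted p = 1.00 for both), and at -0.48 with it.

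The list of lipid droplet and lipolysis genes had 14 of 19 tested, 4 higher and 10 lower, with 0 called, 0 at an unadjusted p under 0.05 and a median of -0.08, which turned to 0.49 with saline replicate 1. Mgll, monoglyceride lipase, was at -0.18 ± 0.15, G0s2, an inhibitor of adipose triglyceride lipase, at -0.22 ± 0.19, and Cideb, a relative of Cidec known from liver, at -0.32 ± 0.27 (limma adjusted p = 1.00 for each). With that array Mgll and G0s2 turned, to 1.10 and 0.72, and Cideb was at -1.02.

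In the list of lipogenic genes 10 of 11 were tested, 3 higher and 7 lower, with 0 called. The median was -0.08, which turned to 0.12 with saline replicate 1. At an unadjusted limma p under 0.05 there was 1 of 10, against 4.6% of all tested probe sets. Scd1, which introduces the double bond of oleate, was at -0.30 ± 0.097 (unadjusted p = 0.0114, limma adjusted p = 0.970), with 11687, 12554 and 12341 with leptin and 14895 and 15058 with saline. Every leptin array lay below both saline arrays, but saline replicate 1 read 2902.8 and turned the change to 0.49. Srebf1, the transcription factor that drives lipogenesis, was at -0.23 ± 0.13, and Acaca, acetyl-CoA carboxylase, at 0.24 ± 0.20 (-0.044 and -0.16 on 6 arrays). In the list of other adipokines and receptors 8 of 13 were tested, 4 higher and 4 lower, with 0 called, 0 at an unadjusted p under 0.05 and a median of -0.03, which turned to 0.23 on 6 arrays. Apln, which codes for apelin, had the smallest p there, at 0.28 ± 0.16 (limma adjusted p = 1.00), and was at 0.031 with saline replicate 1.

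**Figure D4:**
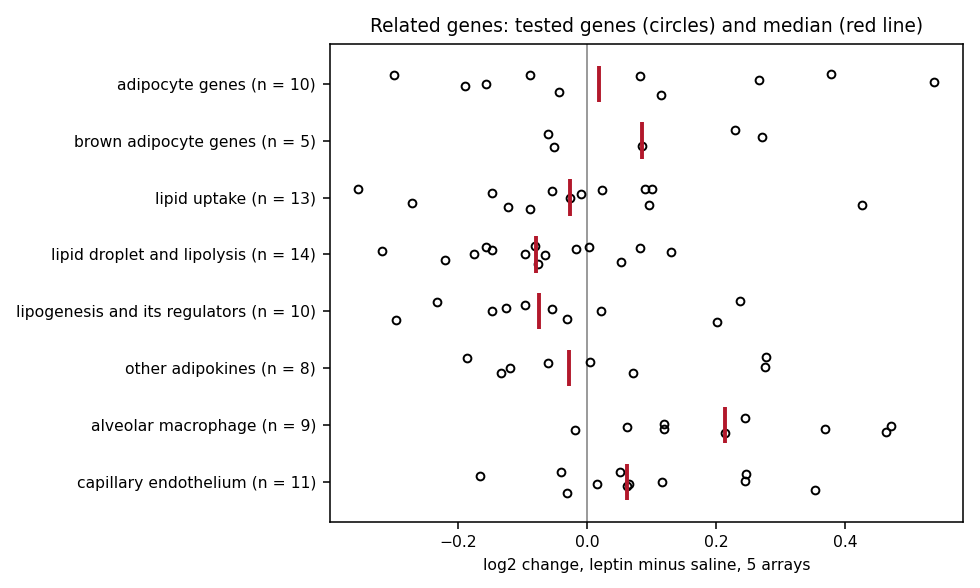
Log2 change (leptin minus saline, 5 arrays) of each tested gene in 8 lists, with the list's median as a red line. Medians run from -0.08 for lipid droplet and lipogenic genes to 0.21 for alveolar macrophage markers, and the genes of each list spread to both sides of 0.

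Cd36, Fabp4 and Lpl are known from other lung cells, so the markers of those cells are given beside them. Of the alveolar macrophage list 9 genes were tested, 8 higher and 1 lower, with 0 called, 0 at an unadjusted p under 0.05 and a median of 0.21 (0.49 with saline replicate 1). Its summed level was 10259 to 12751 with leptin, against 8859 and 11453 with saline, which overlap, and 6540 on saline replicate 1. Chil3, a chitinase-like protein of alveolar macrophages, was at 0.12 ± 0.17, Itgax, which codes for CD11c, at 0.47 ± 0.23, Krt79, a keratin, at 0.37 ± 0.19, and the carbonic anhydrase Car4 at 0.25 ± 0.13 (limma adjusted p = 1.00 for each). With saline replicate 1 Chil3, Krt79 and Car4 were at 0.80, 1.39 and 0.91, and the log2 means of Itgax, which read 924.7 on that array, were level. The scavenger receptor Marco, below the filter, read 93.7 to 130.1 with leptin and 47.8 and 81.7 with saline. Siglecf, also below it, read 23.5 to 60.1 with leptin and 38.3 and 41.4 with saline, with overlap.

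The capillary endothelial list had 11 tested genes, 8 higher and 3 lower. Limma called 0, and the median was 0.06 (0.71 with saline replicate 1). At an unadjusted limma p under 0.05 there was 1 of 11, against 4.6% of all tested probe sets. The summed level of the list was 35669 to 40332 with leptin and 37861 and 36574 with saline, and 9057 on saline replicate 1. Pecam1 and Cdh5, endothelial junction proteins, were at 0.12 ± 0.11 and 0.05 ± 0.12, and Kdr, the VEGF receptor, at 0.35 ± 0.16 (unadjusted p = 0.0455, limma adjusted p = 1.00). Emcn, which codes for endomucin, was at 0.25 ± 0.14 (limma adjusted p = 1.00), and Car4 is on this list too. On 6 arrays Pecam1, Cdh5, Kdr and Emcn were at 1.61, 0.49, 0.55 and 0.30. Of the alveolar type II list 7 were tested, 2 higher and 5 lower, with 0 called. Their median was -0.10, which turned to 0.99 with saline replicate 1. At an unadjusted limma p under 0.05 there was 1 of 7, again against 4.6%. The sum of that list was 98976 to 111444 with leptin and 112888 and 112924 with saline, without overlap. On saline replicate 1 it was 14876. Of single tested probe sets, 9.66% were lower without overlap. The surfactant protein genes Sftpc, Sftpb and Sftpd were at -0.10 ± 0.11, -0.22 ± 0.099 and -0.17 ± 0.11, and the phosphate carrier Slc34a2 at -0.11 ± 0.10 (limma adjusted p = 1.00 for each). All 4 turned with saline replicate 1, to 0.83, 0.59, 0.99 and 0.68. The part of these cell types in the members' values was not tested.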

How the data were processed

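The authors deposited a table of intensity on a linear scale for each probe set and array. Their software is not given in the sources used here. Its trimmed mean without the lowest and highest 2% lies between 500.10 and 500.14 on each array, so the values had been scaled. For arrays, their number limits the precision.

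Of 22690 probe sets 64 controls were left out. The platform annotation gives 20380 probe sets 1 symbol, 691 several and 1555 none, and names come from the first kind alone. All 8 members measured matched RefSeq by Entrez Gene ID. Tests used log2(intensity + 22.1), a pseudocount set at the 10th percentile, so changes of dim probe sets are understated. After leaving out the lowest 30% by mean, limma 3.58.1 (R 4.3.3) tested 15838 (lmFit, eBayes with trend, two-sided, leptin minus saline, adjusted threshold 0.05). For list genes the tested probe set of highest mean was taken. The script was tested on simulated data.

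Members, lists, tests and alternatives were chosen with earlier results of these data known. From the lists the rule named the 3 genes with the smallest p and, for marker lists, the first 2 markers, and others are named where they bear on a member and were chosen after their values were seen. Limma p-values set the difference between the groups against the spread between samples of a group, moderated over all tested probe sets. In the main comparison that spread comes from 3 leptin and 2 saline arrays.

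The labels do not say that replicate numbers pair animals. Deviations of same-numbered arrays correlated at 0.103 to 0.144 over tested probe sets, above 0.1 for each pair, and at 0.061 to 0.111 over all, where 2 pairs were below it. Arrays of different number correlated at -0.147 to 0.0491 over tested probe sets. Deviations were taken from a saline mean that included saline replicate 1, so those of the saline arrays depend on that array and on each other. The numbers may pair the samples, but these values cannot decide it. A replicate block is an alternative and changed no member's call. The other alternatives were the sixth array, normalization, pseudocount, filter, variance prior, array weights, each array left out and the series' own rule.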

Additional observations from a re-analysis of the deposited data

How the results depend on the processing

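The count of 0 member probe sets called was the same under all 17 alternatives run. The count over all probe sets, 7, was 0 with the replicate block (with 5 or 6 arrays), with saline replicate 1, without a variance trend or a filter, with a pseudocount of 1 and with a common median or quantile normalization, and 0 to 3 when another array was left out (0 without leptin replicate 1 or saline replicate 3). The count over all probe sets was 7 with a pseudocount at the 25th percentile and 6 with the lowest 50% left out. It was 8 with array weights on all 6 arrays, where saline replicate 1 had a weight of 0.0257. A version of the series' own rule was written for the 5 arrays. It took tested probe sets with a mean ratio of 1.5-fold, at least 4 of 6 pairs at 1.5-fold and an unadjusted t test p under 0.05. This version gave 106 in all and 0 members. With saline replicate 1, with or without the replicate block, Cidec reversed to -0.80, Fabp4 1451263_a_at to -0.60 and 1425809_at to -0.93, and Lpl 1431056_a_at to 0.14. With the replicate block on 5 arrays Thrsp 1424737_at was at -0.040, Fabp4 1425809_at at -0.11, Pnpla3 at -0.45 and Cd36 1450883_a_at at -0.022, and the last at -0.015 with a common median. In that fit leptin replicate 1 has no partner, so the changes equal those without it. The block put Adipoq at 0.48 and Lpl 1415904_at at -0.26 (unadjusted p = 0.0101 and 0.0374, limma adjusted p = 0.624 and 0.673). Leaving out an array moved Retn between -0.080 and 0.11, Cidec between -0.012 and 0.13, Thrsp 1424737_at between -0.061 and 0.15 and 1422973_a_at between -0.15 and 0.44, Pnpla3 between -0.45 and 0.062, Fabp4 1417023_a_at between -0.077 and 0.22 and 1451263_a_at between -0.19 and 0.46 and 1425809_at between -0.11 and 0.19, and Cd36 1450883_a_at between -0.034 and 0.061. Without saline replicate 2 or 3, the lone saline array is assumed to vary like the leptin arrays. Adipoq, Fabp4 1424155_at, the other Cd36 probe sets and Lpl 1415904_at kept their direction under all alternatives run. The cause of the reversals was not tested. Of the 2 Fabp4 probe sets below the filter, 1424155_at kept its direction and 1425809_at did not. Brighter probe sets, such as Cd36 1450883_a_at, changed direction too.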

Other observations

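A further 4 marker lists, of tissues or cells that a lung sample may hold, had medians near 0 without saline replicate 1. The thymus list had 3 of 10 genes tested, 3 higher and 0 lower (median 0.09), with Rag1 and Rag2, the recombinase genes, at 1.5 to 15.1 on the 5 arrays and Cd3g, Ly6d and Dntt at 0.14 ± 0.26, 0.09 ± 0.25 and 0.02 ± 0.25 (log2 change ± SE). The list of cardiac and striated muscle had 8 of 10 tested, 3 higher and 5 lower (median -0.04), with the atrial and cardiac genes Myh6 and Myl7 at -0.02 and -0.07 and Ckm, Myl4 and Nppa at 0.15, 0.12 and -0.28. Myh6 read 1485 to 2244 on the 5 arrays and 9448 on saline replicate 1. Club and ciliated airway markers were 1 higher and 3 lower (median -0.07), with Scgb1a1, Scgb3a2 and Cyp2f2 at -0.08, -0.10 and -0.06. Lung fibroblast markers were 4 higher and 3 lower (median 0.09), with Tcf21 at -0.05. Its 3 collagen genes were the highest, Col1a1 at 0.60 ± 0.13, Col3a1 at 0.71 ± 0.16 and Col1a2 at 0.53 ± 0.15 (limma adjusted p = 0.327, 0.401 and 0.762), each without overlap between the groups, and at 1.87, 1.29 and 0.66 with saline replicate 1. On 6 arrays the list medians were -0.04, 0.50, 0.00036 and 0.56, in the order given here. Limma called 0 genes of these 4 lists. The unadjusted limma p was under 0.05 for 3 of 7 fibroblast genes and 0 of the other 3 lists, against 4.6% of all tested probe sets. Higher with leptin without overlap, as the 3 collagen genes were, were 9.92% of all tested probe sets.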
